A study of Camellia sinensis with 15 samples.

Results

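The 7 genes described here are those MYB transcription factor genes that the study's text names for lower levels in roots treated with cadmium (Cd): CSS0000442, CSS0002706, CSS0006502, CSS0015964, CSS0030465, CSS0031744 and CSS0043569. They were found by gene ID and are 7 of 59128 genes in each deposited file and 7 of the 33109 genes that were tested. The libraries come from roots of 2-year-old seedlings of the tea plant (Camellia sinensis) cultivar 'Fuding Dabaicha'. Cd1 and Cd2 seedlings were given a Cd (II) solution of 120 mg/kg and sampled after 10 and 15 d, As1 and As2 seedlings were given an arsenic (As (V)) solution of 120 mg/kg and sampled after 10 and 15 d, and CK seedlings were untreated. The times are those of the study's methods, while all sample labels read day 15. No separate sampling day is given for CK, so treatment and sampling day cannot be told apart in any treated group compared with CK. Between 10 and 15 d of a metal, length of exposure and sampling day cannot be told apart either. The methods call the replicates of the enzyme and qRT-PCR measurements biological, but neither they nor the labels say whether the sequenced replicates came from separate plants or pots. If they did not, p-values measure only the spread between these samples, which may be technical.

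MYB proteins form one of the largest families of plant transcription factors. They bind DNA through repeats of the MYB domain, and members studied in Arabidopsis and other plants control phenylpropanoid and flavonoid synthesis, the cell wall, the fate of root epidermal cells and responses to drought, salt and metals. Some members activate their targets and others repress them, and many act together with bHLH proteins. The files give the 7 genes by ID alone, so the family is that named by the study, and no role, position or sequence of a single gene is given here.

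The study chose these genes from the same libraries. Their levels in Cd-treated roots compared with CK are therefore a description, as are those of CSS0030465 in As-treated roots, for which it was also named, and calls printed for them restate the choice and support nothing. The same holds for CSS0015964 compared with CK, since it passed the filter on low values through its CK level. The remaining 5 genes were not named for As, and their levels in As-treated roots were tested, although with the CK libraries that also served for the choice. The difference between As2 and As1 is taken from the As libraries alone, while the estimate of its error uses all groups. That of Cd with As did not enter the choice but uses the Cd libraries in which the genes were found low, so that the sign of its differences is not independent of the choice. The difference between Cd2 and Cd1 is taken from those Cd libraries alone, so it is not independent of the choice either.

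Each group has 3 libraries except Cd1. The file given for Cd1 replicate 3 holds the same numbers as that of Cd2 replicate 1, under the header of Cd2 replicate 1, so it was used once, as Cd2 replicate 1, and 14 libraries remained. The values are FPKM (fragments per kilobase of transcript, scaled for depth). They are whole multiples of a step for all 46517 genes above 0 (within 0.05 of a fragment or less, depending on the digits given), which gave between 10483112 and 13846717 fragments per library (median 12179653). As2 replicate 2 stood apart for these genes. It had the highest level among the As2 libraries for 7 of the 7 MYB genes, beside 31.8% of all genes tested, and lay over 1 log2 unit above both other As2 libraries for 3 of them, beside 4.67% of all genes. CK replicate 3 was the highest CK library for 6 of the 7, beside 37.6% of all genes, and lay over 1 log2 unit above both other CK libraries for 1, beside 2.76% of all genes. The tissue was not checked against root markers, since the IDs are not paired with gene names.

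The 7 genes differed widely in level. In the median over the 14 libraries, CSS0043569 had 11.9 FPKM and CSS0030465 had 11.7 FPKM, which placed them above 66.7% and 66.3% of the tested genes. CSS0002706 had 5.66, CSS0000442 had 3.41, CSS0006502 had 2.66 and CSS0031744 had 2.12 FPKM. CSS0015964 was close to the limit of detection with a median of 0.375 FPKM. It reached 1 FPKM in 4 libraries, the 3 CK libraries and As2 replicate 2, and so passed the filter (1 FPKM in at least 3 libraries) only through them. The lengths implied by the FPKM steps ran from 702 bp (CSS0000442) to 1319 bp (CSS0030465).

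In As-treated roots, the 7 genes did not behave alike. CSS0030465 was lower than CK in every As library. Another 5 genes lay below the CK mean in most As libraries and had their highest As level in As2 replicate 2, and CSS0043569 had fold changes close to 0. Differential expression was tested with limma on log2(FPKM + 1), and a gene was called where its adjusted p (FDR) was under 0.05 and the expression differed by more than 1 log2 unit. Of the 5 genes that could be tested, 0 were past this threshold in As1, in As2 or in the mean of both compared with CK, where 1.62%, 0.0151% and 0.308% of all tested genes were called, and limma-voom on the recovered fragments also gave 0. In limma, 2 of the 5 had an unadjusted p under 0.05 and a |log2 fold change| over 1 in As1, 0 in As2 and 2 in the mean. Of all 33109 tested genes, 2381, 1057 and 1169 met this looser rule. The median log2 fold change of the 5 was -1.05 in As1 and -0.68 in As2, beside -0.02 and 0.01 over all tested genes. The 5 were named for Cd levels below these same CK libraries, so the sign of these medians is not independent of the choice. CSS0030465 was past the threshold in all 3 of these comparisons and CSS0015964 in none of them, as a description.

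**Figure D1:**
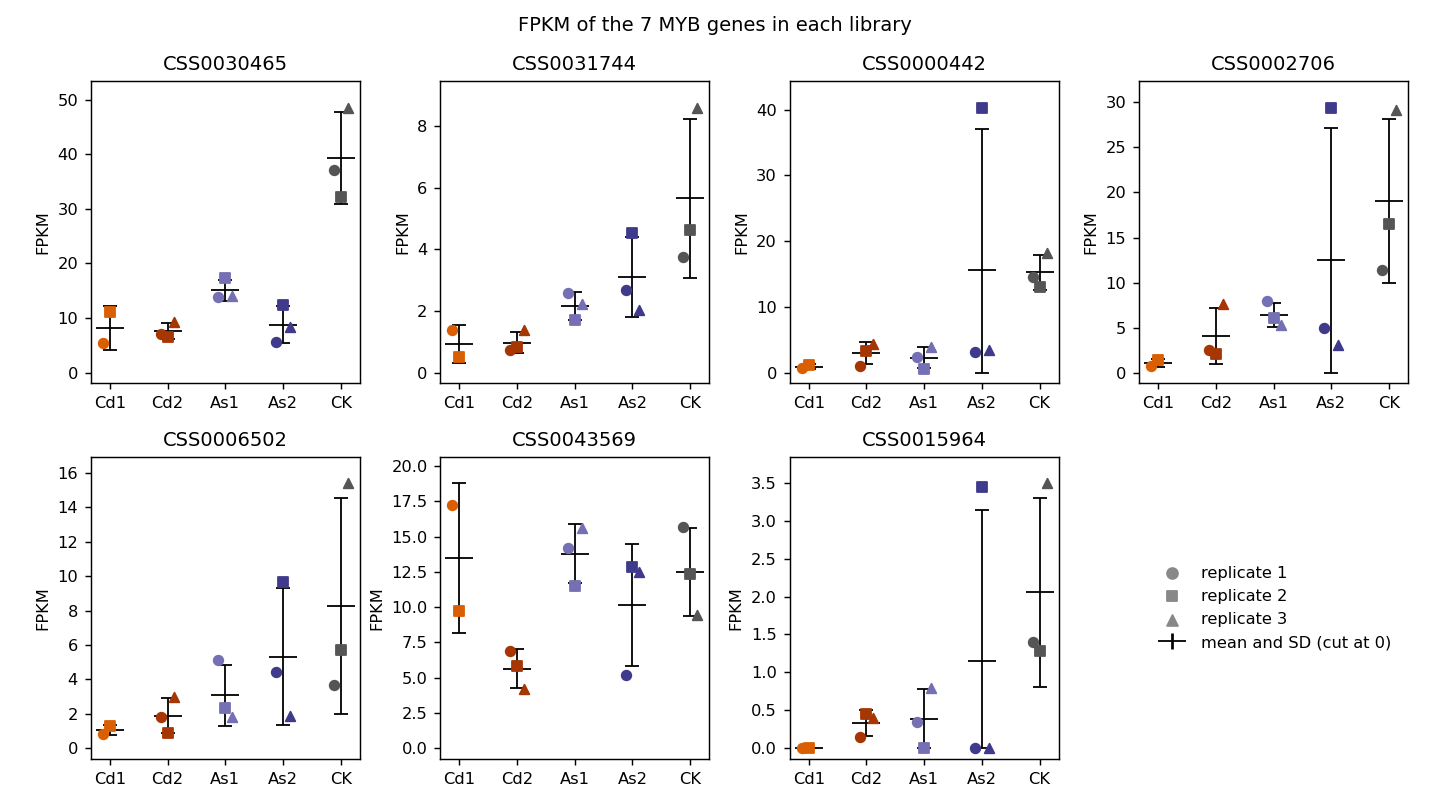
FPKM (y axis, from 0) of the 7 MYB genes in Cd1, Cd2, As1, As2 and CK (x axis), where each point is 1 library, its shape the replicate, the wide bar the mean and the error bar the SD, cut at 0 where it would go below. CSS0030465 is highest in the 3 CK libraries (32.1 to 48.6 FPKM), As2 replicate 2 stands far above the other As2 libraries for CSS0000442, CSS0002706 and CSS0015964, and CSS0043569 is lowest in Cd2.

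CSS0030465 had 13.9, 17.3 and 13.99 FPKM in As1 and 5.69, 12.3 and 8.32 FPKM in As2, against 37.1, 32.1 and 48.6 FPKM in CK. The 6 As libraries all lay below the 3 CK libraries, and the As2 libraries also lay below the As1 libraries. Its mean was 15.1 ± 1.98 FPKM in As1 and 8.78 ± 3.35 FPKM in As2, against 39.3 ± 8.44 FPKM in CK (SD, n = 3 each), or 38.4% and 22.4% of CK. Its log2 fold change was -1.31 in As1 and -2.08 in As2 compared with CK. The direction held under all 27 alternatives for both times. Many of these left the compared libraries and the scale as they were, so they could not change it. The calls of this gene were lost under 13 of the alternatives for As1 and 19 for As2. The fit without Cd2 replicate 1 is counted there again as the identical library left out. Omitting any single CK or As1 library, or Cd2 replicate 1 or 2, lost the call for both times. Omitting Cd2 replicate 3 or As2 replicate 1 or 3 lost it for As2. For the mean of both times the call was lost without CK replicate 1 or 3.

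CSS0000442 had 2.36, 0.604 and 3.93 FPKM in As1, against 14.5, 13.0 and 18.2 FPKM in CK. In As2 it had 3.14, 40.3 and 3.49 FPKM, so that replicate 2 was the highest of all 14 libraries and the others lay under the CK range. The 40.3 FPKM of this library rest on 325 fragments, and the lowest value, in As1 replicate 2, on 5. The log2 fold change was -2.43 (SE 0.73, 95% interval -4.01 to -0.86) in As1 compared with CK, with an adjusted p of 0.102 in limma, and all 3 As1 libraries lay below all 3 CK libraries. In As2 it was -0.81 (SE 0.73, adjusted p = 0.791). Since the 5 groups share 1 estimate of the spread, As2 replicate 2 also enters the test of As1. Without this library, CSS0000442 was past the threshold in As1 compared with CK at the same fold change (adjusted p = 0.0159) and in the mean of As1 and As2 (log2 fold change -2.17, adjusted p = 0.0279), and its log2 fold change in As2 was -1.90 (adjusted p = 0.116). Over its 27 alternatives the adjusted p ran from 0.0159 to 0.243 in As1.

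CSS0002706 showed a similar division of the As2 libraries. It had 7.93, 6.05 and 5.28 FPKM in As1 and 4.96, 29.4 and 3.07 FPKM in As2, against 11.4, 16.5 and 29.2 FPKM in CK. All As1 libraries and As2 replicates 1 and 3 lay below all CK libraries, while As2 replicate 2 was level with the highest CK library. The log2 fold change was -1.35 (SE 0.63, adjusted p = 0.270) in As1 and -1.05 (SE 0.63, adjusted p = 0.669) in As2, neither past the threshold in limma. Without As2 replicate 2, the value in As2 was -1.93 (adjusted p = 0.102). Over the 27 alternatives the adjusted p in As2 ran from 0.102 to 0.956.

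CSS0015964 had 0.345, 0 and 0.797 FPKM in As1 and 0, 3.45 and 0 FPKM in As2, against 1.40, 1.28 and 3.49 FPKM in CK. These values rest on 4, 0 and 10 fragments in As1 and 0, 38 and 0 fragments in As2, against 17, 13 and 41 fragments in CK. The gene was thus undetected in As2 replicates 1 and 3 and at the level of the highest CK library in As2 replicate 2. Its log2 fold change compared with CK was -1.11 in As1 and -0.82 in As2, and -1.54 in As2 without replicate 2. No test is given, as the gene passed the filter through its CK libraries and As2 replicate 2.

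CSS0031744 had 2.59, 1.70 and 2.21 FPKM in As1 and 2.69, 4.54 and 2.04 FPKM in As2, against 3.74, 4.61 and 8.60 FPKM in CK. As1 lay wholly below CK, and As2 overlapped it through replicate 2. The mean was 2.17 ± 0.446 FPKM in As1 and 3.09 ± 1.30 FPKM in As2, against 5.65 ± 2.59 FPKM in CK (SD, n = 3 each). The log2 fold change was -1.01 (SE 0.32, 95% interval -1.71 to -0.31) in As1, with an adjusted p of 0.123, and -0.68 (SE 0.32) in As2, with an adjusted p of 0.569.

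CSS0006502 had 5.11, 2.35 and 1.81 FPKM in As1 and 4.45, 9.67 and 1.87 FPKM in As2, against 3.65, 5.72 and 15.4 FPKM in CK. Both As groups overlapped CK, and the 3 CK libraries themselves spanned a wide range. Log2 fold changes were -1.05 (SE 0.53, adjusted p = 0.310) in As1 and -0.54 (SE 0.53, adjusted p = 0.814) in As2.

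CSS0043569 had As levels within the CK range in all libraries but As2 replicate 1. It had 14.2, 11.5 and 15.6 FPKM in As1 and 5.18, 12.9 and 12.5 FPKM in As2, against 15.7, 12.3 and 9.43 FPKM in CK. The groups overlapped, and only As2 replicate 1 lay under the CK range. A log2 fold change of 0.15 (SE 0.33, 95% interval -0.55 to 0.85, adjusted p = 0.850) was obtained in As1 and of -0.34 (SE 0.33, 95% interval -1.04 to 0.37, adjusted p = 0.812) in As2. Without CK replicate 3 the value for As1 was -0.02, and without As2 replicate 1 that for As2 was 0.05.

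Counted over the genes, as a description, 5 of the 7 had all As1 libraries below all CK libraries, beside 12.5% of all tested genes. Of these 5, CSS0030465 was named for As and CSS0015964 passed the filter through CK, so the count is partly fixed by the choice and the filter. The other 3 were CSS0031744, CSS0000442 and CSS0002706. They were named for Cd levels below these same CK libraries, so their part of the count is not independent of the choice either. In As2 this held for 1 of the 7 (CSS0030465), beside 6.6% of all genes. With As2 replicate 2 left out, which was decided after the values were seen, it held for 5 of the 7, beside 14.7% of all genes. The 4 further genes were CSS0031744, CSS0000442, CSS0002706 and CSS0015964. All 6 As libraries lay below CK for 1 of the 7, beside 2.44% of all genes, and the 5 libraries other than As2 replicate 2 lay below CK for 5 of the 7, beside 4.3% of all genes. The same 2 genes are among them. In bulk roots, fewer cells of a type and less RNA per cell cannot be told apart.

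**Figure D2:**
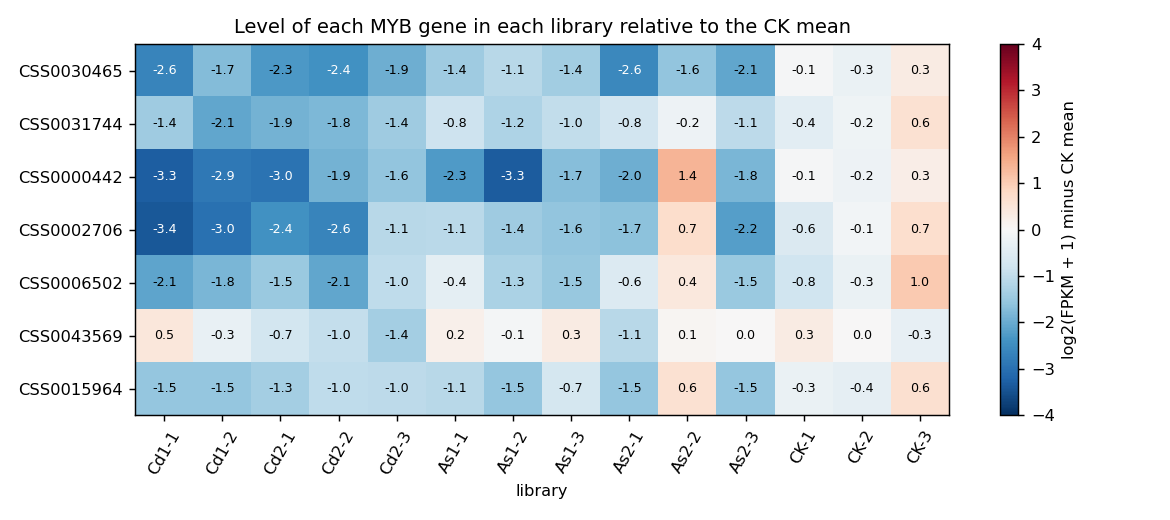
The level of each MYB gene (rows) in each of the 14 libraries (columns, named by group and replicate) as log2(FPKM + 1) minus the mean of the 3 CK libraries, with blue below and red above that mean. As2 replicate 2 is above the CK mean for CSS0000442, CSS0002706, CSS0006502 and CSS0015964, whereas As2 replicates 1 and 3 are below it for the same genes.

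The 2 As times were then compared directly. As2 and As1 did not differ past the threshold for any of the 7 genes in limma (0 calls, beside 2.1% of all tested genes). Limma-voom on the recovered fragments also gave 0 calls. In limma, 1 of the 7 had an unadjusted p under 0.05 with a |log2 fold change| over 1, beside 2196 of the 33109 tested genes. That gene was CSS0000442, with a log2 fold change of 1.62 (SE 0.73, 95% interval 0.04 to 3.19, adjusted p = 0.261) which fell to 0.53 without As2 replicate 2. CSS0030465 was lower in As2 than in As1 by a log2 fold change of -0.77 (SE 0.29, 95% interval -1.39 to -0.14, adjusted p = 0.180), with no overlap of the libraries, as in 10.1% of all tested genes. CSS0002706 had a log2 fold change of 0.30 (SE 0.63, adjusted p = 0.852) with all libraries and -0.58 without As2 replicate 2. The remaining 4 genes had values between -0.49 (CSS0043569) and 0.51 (CSS0006502). Leaving out CSS0015964, for which no test is given, their adjusted p-values in limma were 0.470 to 0.667.

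In Cd-treated roots, the values that led to the choice of these genes were as follows. In Cd1, 6 of the 7 genes had both libraries below every CK library (19.2% of all tested genes did), and in Cd2 7 of the 7 did (11.1% of all tested genes). CSS0030465 had 5.33 and 11.1 FPKM in Cd1 and 7.10, 6.44 and 9.30 FPKM in Cd2, or means of 20.9% and 19.4% of CK. CSS0031744 had 1.37 and 0.495 FPKM in Cd1 and 0.718, 0.835 and 1.37 FPKM in Cd2, or 16.5% and 17.3% of CK. Both genes were therefore at nearly the same level at 10 and 15 d.

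CSS0000442 had 0.633 and 1.21 FPKM in Cd1 and 1.08, 3.34 and 4.43 FPKM in Cd2, or 6.05% and 19.3% of CK. CSS0002706 had 0.780 and 1.35 FPKM in Cd1 and 2.50, 2.03 and 7.63 FPKM in Cd2, or 5.60% and 21.3% of CK. CSS0006502 had 0.838 and 1.27 FPKM in Cd1 and 1.84, 0.892 and 2.96 FPKM in Cd2, or 12.8% and 23.0% of CK. In these 3 genes, as in CSS0031744 and CSS0015964, the Cd1 mean was the lowest of the 5 groups. The Cd1 levels rest on as few as 6 fragments for CSS0000442, 8 for CSS0031744, 9 for CSS0002706 and 11 for CSS0006502.

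CSS0015964 had 0 fragments in both Cd1 libraries and 2, 5 and 5 fragments in Cd2 (0.143, 0.452 and 0.404 FPKM). Against a floor of 3 fragments per library, its mean in Cd1 was at least 8.70-fold lower than in CK. CSS0043569 had 17.2 and 9.73 FPKM in Cd1 and 6.93, 5.85 and 4.18 FPKM in Cd2, against 15.7, 12.3 and 9.43 FPKM in CK. It was the exception among the 7, since its mean in Cd1 was 108% of CK and only its mean in Cd2 was lower, at 45.3% of CK.

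At the threshold, 3 of the 7 genes were called in Cd1 (CSS0030465, CSS0031744 and CSS0002706), where 3.18% of all tested genes were called, and 1 (CSS0030465) in Cd2, where 0.0332% were. These counts are a description, as they come from the comparison by which the genes were named. They also rested on single libraries. In Cd1 the count was 0 without Cd1 replicate 1, 1 without Cd1 replicate 2 or CK replicate 3, and 5 without As2 replicate 2. With the count at 0, 5 genes had an unadjusted p under 0.05 and a change of more than 1 log2 unit in limma, beside 3119 of all 32801 genes tested then. In Cd2 the count was 0 when any of CK replicates 1, 2 and 3 or Cd2 replicates 1 and 2 was left out. In limma, 5 to 7 of the genes then still had an unadjusted p under 0.05 with a |log2 fold change| over 1, beside 1247 to 2091 of all tested genes.

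**Figure D3:**
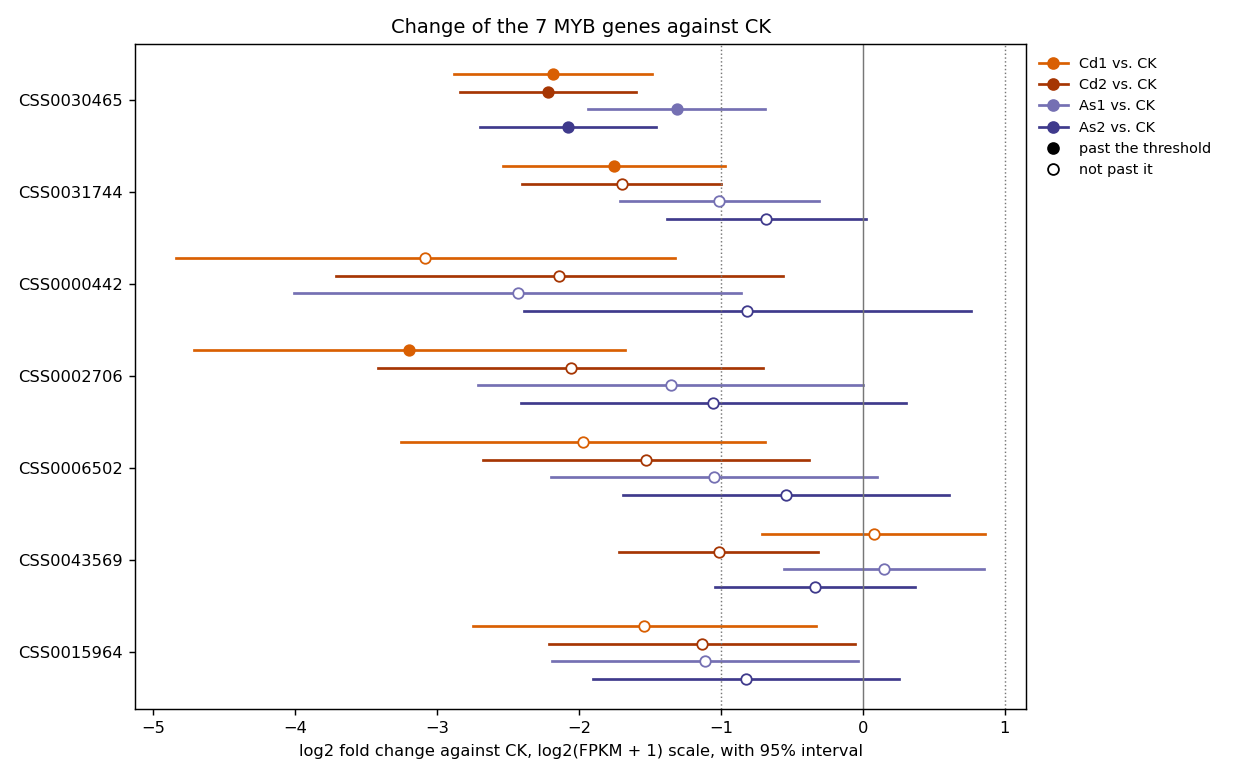
Log2 fold change of the 7 MYB genes (rows) in Cd1, Cd2, As1 and As2 compared with CK (x axis, log2(FPKM + 1) scale), with 95% intervals from limma, where filled points are past the threshold and open points are not, and dotted lines mark a log2 fold change of 1 in each direction. Except for CSS0043569 all points lie left of 0, and the points of Cd1 and Cd2 for all 7 genes, those of As1 and As2 for CSS0030465, and those of CSS0015964 are a description.

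The genes were named for low levels in the Cd libraries, so a comparison of Cd2 with Cd1 is not independent of the choice. Between 15 and 10 d of Cd, 0 of the 7 genes passed the threshold in limma, beside 1.53% of all tested genes, and limma-voom gave 0 as well. Of the 7, CSS0043569 alone had an unadjusted p under 0.05 in limma with a |log2 fold change| over 1, beside 2463 of all tested genes. Its log2 fold change in Cd2 compared with Cd1 was -1.09 (SE 0.36, 95% interval -1.88 to -0.31, adjusted p = 0.168), and all 3 Cd2 libraries were below both Cd1 libraries, as in 15.8% of all tested genes. CSS0002706 and CSS0015964 had the opposite arrangement, with both Cd1 libraries below all Cd2 libraries, as in 17.9% of all tested genes. The log2 fold change of CSS0002706 was 1.14 (SE 0.70, adjusted p = 0.50 in limma). That of CSS0015964 was 0.41, given as a description. It rests on 0 fragments in Cd1 and 2, 5 and 5 fragments in Cd2, near the floor of 3 fragments.

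Cd and As were compared at the same time. The genes were named for low Cd levels, so the sign of these differences is not independent of the choice. At 10 d the log2 fold change of Cd1 compared with As1 was negative for 7 of the 7 genes, with a median of -0.74 beside 0.01 over all tested genes. None passed the threshold in limma (0 of 7, beside 1.63% of all genes) or in limma-voom (0 of 7). In limma, 1 of the 7 had an unadjusted p under 0.05 with a |log2 fold change| over 1, beside 2959 of all tested genes. This was CSS0002706, with 0.780 and 1.35 FPKM in Cd1 against 7.93, 6.05 and 5.28 FPKM in As1 and a log2 fold change of -1.84 (SE 0.70, 95% interval -3.36 to -0.33, adjusted p = 0.184). With CK replicate 3 and As2 replicate 2 both left out, an alternative chosen after seeing the data, it was past the threshold at the same fold change (adjusted p = 0.0417). CSS0030465 had a log2 fold change of -0.87 (SE 0.32, adjusted p = 0.173). Both Cd1 libraries lay below the 3 As1 libraries for 4 of the 7 genes (CSS0030465, CSS0031744, CSS0002706 and CSS0006502), beside 16.5% of all genes. For CSS0043569 the difference was -0.07 (95% interval -0.86 to 0.72). It was 0.31 without Cd1 replicate 2 and 0.019 without As1 replicate 3.

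At 15 d the sign is likewise not independent of the choice. The log2 fold change of Cd2 compared with As2 was again negative for 7 of the 7 genes. Its median was -0.99, beside -0.01 over all tested genes. Without As2 replicate 2, the log2 fold change was 0.11 for CSS0030465 and 0.41 for CSS0015964, and negative for the other 5. In limma 0 of the 7 were past the threshold, beside 0.00302% of all genes, and limma-voom gave 0. By limma, 1 of the 7 had an unadjusted p under 0.05 with a |log2 fold change| over 1, beside 1266 of all tested genes. This was CSS0031744, with 0.718, 0.835 and 1.37 FPKM in Cd2 against 2.69, 4.54 and 2.04 FPKM in As2, which do not overlap. Cd2 lay wholly below As2 for this 1 of the 7 genes, beside 10.2% of all genes. Its log2 fold change was -1.02 (SE 0.32, 95% interval -1.72 to -0.32, adjusted p = 0.232). For CSS0030465, Cd2 and As2 overlapped and the log2 fold change was -0.14 (SE 0.29, 95% interval -0.76 to 0.48, adjusted p = 0.890). The change of the Cd and As difference between 10 and 15 d was tested as an interaction. It was past the threshold for 0 of the 7 genes in limma (adjusted p of 0.535 to 0.983), beside 0.275% of all genes, and for 0 in limma-voom. In limma, 0 of the 7 had an unadjusted p under 0.05 with a |log2 fold change| over 1, beside 2689 of all tested genes.

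The order of the group means was the same, Cd1 lowest, then Cd2, As1, As2 and CK, for CSS0031744, CSS0002706, CSS0006502 and CSS0015964. For CSS0002706 and CSS0015964 the place of As2 rested on its replicate 2. The other As2 libraries averaged 4.02 FPKM for CSS0002706, under 6.42 in As1 and 4.05 in Cd2, and were at 0 for CSS0015964. Within the order, neighbouring groups overlapped in most steps. Only Cd2 and As1 were apart for CSS0031744, only Cd1 and Cd2 were apart for CSS0002706 and for CSS0015964, and all neighbours overlapped for CSS0006502. CSS0030465 ran Cd2, Cd1, As2, As1 and CK, and its highest 3 groups were apart from each other. CSS0000442 ran Cd1, As1, Cd2, CK and As2, where As2 came last through its replicate 2, and only Cd2 and CK were apart. CSS0043569 ran Cd2, As2, CK, Cd1 and As1, with all neighbours overlapping.

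The spread between replicates also differed among the genes. The residual SD on the log2(FPKM + 1) scale was 0.377 for CSS0030465, 0.392 for CSS0031744 and 0.432 for CSS0043569, close to the median of all tested genes (0.373). It was 1.04 for CSS0000442, 0.891 for CSS0002706, 0.734 for CSS0006502 and 0.676 for CSS0015964, larger than in 98.0%, 95.9%, 91.1% and 87.8% of the tested genes. As2 replicate 2 enters this SD. It had 12.2 times the mean of the other As2 libraries for CSS0000442, 7.33 times for CSS0002706 and 3.06 times for CSS0006502. For CSS0030465, CSS0031744 and CSS0043569 it had 1.76, 1.92 and 1.45 times that mean.

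Across the 14 libraries, the 21 pairs of the 7 genes had a Pearson's r on log2(FPKM + 1) of 0.04 to 0.93 (median 0.74) and a Spearman's rho of -0.07 to 0.92 (median 0.63). These values are a description, since the libraries fall into 5 groups and the genes were chosen for a shared direction. Among CSS0031744, CSS0000442, CSS0002706, CSS0006502 and CSS0015964, put together after the values were seen, r was 0.77 to 0.93 (median 0.86). CSS0030465 had an r of 0.60 to 0.74 with these 5, and CSS0043569 an r of 0.04 to 0.36 with the other 6. When the group means were subtracted, r among the 5 genes was 0.52 to 0.93 (median 0.77), and without As2 replicate 2 it was 0.15 to 0.87 (median 0.54). The deviations of CSS0043569 had an r of -0.31 to 0.26 with those of the other genes, and of -0.71 to -0.14 (median -0.32) without As2 replicate 2, negative with all 6.

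**Figure D4:**
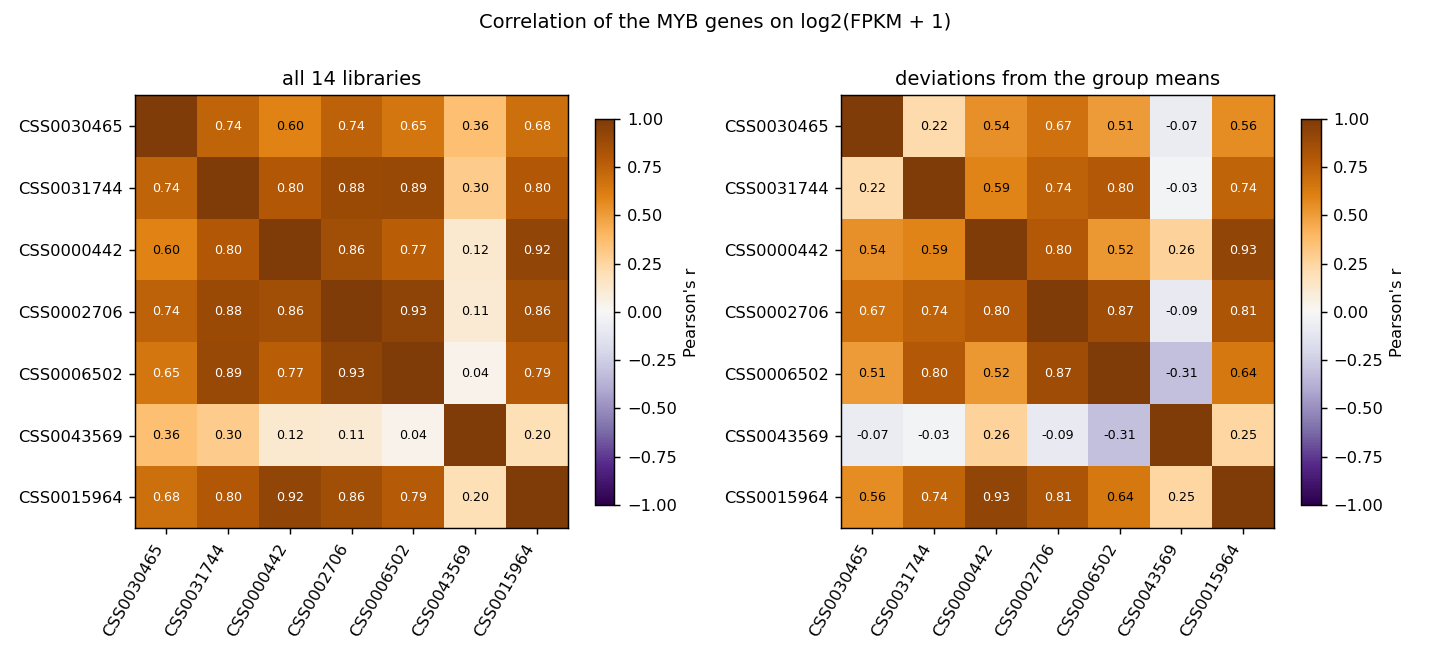
Pearson's r between the 7 MYB genes (rows and columns) on log2(FPKM + 1) over 14 libraries on the left, and for deviations from the group means on the right. CSS0031744, CSS0000442, CSS0002706, CSS0006502 and CSS0015964, put together after the values were seen, have r of 0.77 to 0.93 on the left. On the right their r is 0.52 to 0.93, and that of CSS0030465 with CSS0002706 is 0.67. Without As2 replicate 2, which is not drawn, r of the deviations among these 5 is 0.15 to 0.87. CSS0043569 stands apart on both sides, with r of 0.04 to 0.36 on the left.

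For each gene, the most similar patterns were sought among 27763 genes with CSS identifiers, by r over the 14 libraries. CSS0030465 was most like CSS0004240 (r = 0.926) and CSS0010318 (r = 0.896), and CSS0043569 was most like CSS0047911 (r = 0.916) and CSS0008209 (r = 0.883). With each of these members, 1 gene exceeded an r of 0.9. CSS0002706 was most like CSS0045060 (r = 0.971) and CSS0005214 (r = 0.965), with 167 genes over 0.9. CSS0000442 was most like CSS0049535 (r = 0.964) and CSS0007481 (r = 0.950), with 45 genes over 0.9, and CSS0015964 was most like CSS0048617 (r = 0.962) and CSS0043227 (r = 0.959), with 44. CSS0006502 was most like CSS0004854 (r = 0.950) and CSS0040064 (r = 0.946), with 34, and CSS0031744 was most like CSS0046109 (r = 0.927) and CSS0014307 (r = 0.925), with 14. None of the most similar genes was itself one of the 7.

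The study's text names 8 further transcription factor genes, also chosen on these samples, of which 6 belong to the AP2/ERF family, 1 to the bHLH family and 1 to the MYB family. Of these 8, limma called 4 lower and 1 higher in Cd1 and 1 lower in Cd2, beside 3.18% and 0.0332% of all tested genes. It called 5 lower and 1 higher in As1 and 0 in As2, beside 1.62% and 0.0151% of all tested genes. In As2, 5 of the 8 had an unadjusted p under 0.05 in limma and differed by more than 1 log2 unit, beside 1057 of all tested genes. The MYB gene among the 8, CSS0032956, was named for As and not for Cd. It had 2.14, 2.85 and 0.452 FPKM in As1 and 3.89, 2.81 and 2.10 FPKM in As2, against 9.28, 8.38 and 5.31 FPKM in CK. In Cd it had 7.09 and 14.1 FPKM in Cd1 and 10.5, 5.59 and 7.76 FPKM in Cd2, so that the Cd libraries overlapped CK and the As libraries did not. Its log2 fold change in Cd1 compared with As1 was 2.09, given as a description because the gene was named for its As levels and the 7 genes for their Cd levels.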

How the data were processed

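RNA from tea roots was sequenced in 15 libraries of 5 groups. Per the methods, reads were trimmed by the authors and aligned by HISAT to a C. sinensis genome (version not given in the sources used here), and the authors deposited FPKM values, stated to be computed with DESeq2. The labels and the methods describe the RNA extraction differently. Whole fragments were recovered from the FPKM steps to give the depth, and counts of 3 fragments served as the floor. Floors cover counting error only.

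Genes with at least 1 FPKM in at least 3 libraries were kept. On log2(FPKM + 1), all groups were fitted together with limma 3.58.1 in R 4.3.3 (eBayes with trend), and p-values were adjusted over all 33109 genes by Benjamini-Hochberg. On this scale, changes at low FPKM come out too small. The fit was checked on simulated data. Descriptions used Python 3.11.15, numpy 2.4.6 and pandas 2.3.3.

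The genes named are the 7 members, the remaining MYB gene named by the study and, for each member, the 2 genes with the highest r. Members and lists were chosen with earlier results of these data known. The deposited annotation holds 0 CSS identifiers and was not used. Alternatives varied the pseudocount (0.1, 0.5), filter, scaling, model, treatment of the identical libraries, replicate block and each library in turn.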

Additional observations from a re-analysis of the deposited data

How the results depend on the processing

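Of 1692 log2 fold changes of the 7 genes recomputed over 27 alternative settings, 1596 kept their direction and side of the threshold, 56 lost the call, 10 gained it and 30 changed sign. The identical library left out and the omission of Cd2 replicate 1 are the same fit, counted under both names. Leaving out a library outside a comparison cannot change the fold change of that comparison, only its test. The number of genes called in Cd1 compared with CK (3) was 1 with a replicate block and 1 with limma-voom, and 0 to 5 when single libraries were left out. In Cd2 (1) it was 2 with array weights, 0 with only the groups compared, with the identical library left out under both labels, or with CK replicate 3 and As2 replicate 2 both left out (chosen after seeing the data), and 0 to 1 without single libraries. In As1 (1) it was 0 with no filter, quantile normalization, no trend, the identical library left out, or both of those libraries left out, and 0 to 2 without single libraries. In As2 (1) it was 0 with a pseudocount of 0.1 or 0.5, no filter, a filter of 0.5 FPKM in 2 libraries, quantile normalization, only the groups compared, a replicate block, or the identical library left out, and 0 to 1 without single libraries. In the As mean (1) it was 0 to 2 without single libraries. Where limma gave 0 calls in these settings, the genes of the 7 with an unadjusted p under 0.05 and a |log2 fold change| over 1 numbered 5 in Cd1, 5 to 7 in Cd2, 2 to 6 in As1, 1 in As2 and 1 to 4 in the As mean. Over all genes tested in those settings, the numbers were 3119, 1247 to 2091, 2098 to 2926, 855 to 1533 and 1096 to 1662. In Cd1 compared with As1 (0), the number of genes called was 1 with both libraries left out. No pairing of the samples by replicate number was seen: deviations of the 26 same-numbered pairs had r of -0.311 to 0.278 (median 0.009), those of the 52 other pairs a median of 0.0165. With so few libraries per group this cannot exclude pairing.

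All sign changes were in values not past the threshold, and the causes were not tested. CSS0043569 had -0.19 in Cd1 compared with CK with the identical library kept under both labels and -0.092 with both libraries left out, -0.30 to 0.46 there without single libraries, -0.021 in As1 with both left out and -0.021 to 0.32 without single ones, -0.54 to 0.047 in As2, -0.26 to 0.099 in the As mean and -0.45 to 0.31 in Cd1 compared with As1. CSS0015964 had -0.057 (pseudocount 0.1), -0.32 (limma-voom) and -0.42 to 0.65 (without single libraries) in As2 compared with As1, and 0.31, 0.75 and -0.67 to 0.41 in Cd2 compared with As2 in the same settings. CSS0002706 had -0.58 in As2 compared with As1 with both libraries left out and -0.58 to 0.88 without single ones, where -0.58 is the value without As2 replicate 2. In Cd2 compared with Cd1, CSS0031744 had -0.025 with quantile normalization, -0.0097 with a replicate block and -0.28 to 0.39 without single libraries, and CSS0030465 had 0.0032 with the identical library left out, 0.0021 with it kept under both labels and -0.50 to 0.43 without single libraries. In Cd2 compared with As2, CSS0030465 had 0.11 with both libraries left out and -0.39 to 0.11 without single ones. Depth limits CSS0015964 most, with 0 to 41 fragments per library.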
